A study of Mus musculus with 6 samples.

Results

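The cells described here are 777 perineurial cells of mouse back skin that are marked by Slc6a13 and Thbs4. They were chosen by a rule on measured values from 20941 cells kept of 27418 barcodes in 6 droplet single-cell RNA libraries, in which each captured mRNA molecule is counted by its unique molecular identifier (UMI). A kept cell had 200 to 5000 genes and under 10% mitochondrial UMIs. A cell with no UMI of Ptprc and of Pecam1 and a UMI of at least 3 of the 8 genes Klf5, Cldn1, Wnt6, Fzd2, Ntng1, Moxd1, Ptch1 and Perp passed the perineurial gate, and 2535 cells did so. Each of these gate cells got 1 point for each of 5 genes (Slc6a13, Thbs4, Crabp2, Tenm2, Foxd1) and, in a separate score, 1 point for each of 5 others (Sfrp5, Hcn4, Cldn22, Lypd2, C2) of which it held a UMI. The 777 Slc6a13 Thbs4 cells scored at least 1 and higher for the first 5 genes than for the others, 1277 cells scored higher for the others and are called Sfrp5 Hcn4 cells, and 481 cells tied.

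The study sorted tdTomato+ cells of the VE-cadherin (Cdh5) lineage and asked how they differ between the resting (telogen) and growing (anagen) stage of the hair cycle and after loss of Alk1 (Acvrl1), a BMP receptor of endothelial cells. All 6 mice carried a tdTomato reporter and Cdh5-CreERT2, a Cre recombinase that is driven by the Cdh5 promoter and needs tamoxifen, and all received 200 µg/g tamoxifen at postnatal day (PD) 17. The 2 WT telogen mice (PD 20) and the 2 WT anagen mice (PD 32) also carried Krt14-H2BGFP, which labels keratinocytes and was used to keep GFP- cells, on a C57BL/6;CD1 background. The 2 KO telogen mice (PD 25) carried Alk1 flox/flox on a C57BL/6 background, so that only cells in which Cre had acted lost Alk1. In the deposited genotype field the KO libraries read as wild type, whereas their titles and descriptions name the Alk1 KO, and they are called KO here. Age, strain and the Krt14-H2BGFP allele with its sort differed together with the KO, and their effects cannot be told apart from it. Each library held the cells of 1 mouse, S1 or S2 of its group.

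The perineurium is the sheath of flat cells that wraps each bundle of nerve fibres. Its cells are joined by tight junctions, coated by basement membrane and rich in the glucose transporter GLUT1 (Slc2a1), and together they form the outer part of the blood-nerve barrier. During development Schwann cells send Desert hedgehog to these cells, which receive it through the receptor Ptch1.

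The labelled cell type was checked against perineurial genes that the rule did not use. After each cell was thinned to 1500 UMIs, a UMI of Itgb4, an integrin chain that anchors cells to basement membrane, was found in 63.0% of the Slc6a13 Thbs4 cells, against 1.19% of immune-like cells (a Ptprc UMI, no Pecam1 UMI), which should lack it. Slc2a1 was found in 42.7% against 7.24%, and Krt19, a keratin, in 45.2% against 0.706%. Summed over the cells of each library, Igfbp6, an IGF-binding protein, read 5605, 6130, 7029 and 7739 CPM (counts scaled to the same total in each library's sum) in telogen S1 and S2 and anagen S1 and S2, and 8487 and 5726 CPM in KO S1 and S2. These genes were present in each of the 6 libraries. Fibroblast genes were shared too, since Dcn, a small proteoglycan of connective tissue and the most abundant gene of an 8-gene fibroblast list, read 9104, 10843, 12029, 11183, 7966 and 7165 CPM in that order, while Pdgfra, the receptor that defines many fibroblasts, read 28.4, 21.8, 22.5, 15.6, 197 and 341 CPM.

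The rule's genes give the cells their name. Slc6a13 (ENSMUSG00000030108) encodes a transporter of GABA and taurine known from the meninges, and Thbs4 (ENSMUSG00000021702) encodes thrombospondin 4, a secreted matrix glycoprotein. Crabp2 (ENSMUSG00000004885) binds retinoic acid in the cytosol, Tenm2 (ENSMUSG00000049336) is a teneurin, a transmembrane adhesion protein, and Foxd1 (ENSMUSG00000078302) is a forkhead transcription factor. Promoter windows of 300 bases around the start of each gene were taken from RefSeq on GRCm38.p6. A window was matched for 4 of the 5 genes (Slc6a13, Thbs4, Tenm2 and Foxd1). The windows of the naming genes are printed 5′ to 3′ on the strand of the gene, to show from where these genes are read, with each GC box (GGGCGG, or CCGCCC for the other strand) in capitals. Slc6a13 lies at chr6:121300038-121300337 on the plus strand, in the upstream one of its 3 windows, and Thbs4 at chr13:92794769-92795068 on the minus strand.
Slc6a13: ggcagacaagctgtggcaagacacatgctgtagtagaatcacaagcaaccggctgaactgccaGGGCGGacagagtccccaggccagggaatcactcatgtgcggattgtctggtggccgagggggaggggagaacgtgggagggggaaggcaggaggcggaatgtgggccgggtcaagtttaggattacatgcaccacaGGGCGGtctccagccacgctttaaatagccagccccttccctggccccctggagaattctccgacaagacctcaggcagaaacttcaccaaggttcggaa
Thbs4: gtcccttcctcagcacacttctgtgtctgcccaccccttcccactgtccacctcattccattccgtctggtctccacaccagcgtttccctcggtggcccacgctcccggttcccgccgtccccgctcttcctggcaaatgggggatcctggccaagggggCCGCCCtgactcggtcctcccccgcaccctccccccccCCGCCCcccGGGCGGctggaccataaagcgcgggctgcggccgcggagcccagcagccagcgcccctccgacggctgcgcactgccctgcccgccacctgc
The Slc6a13 window held 2 GC boxes and the Thbs4 window 3. The same letters were found in 3 of the 6 windows of the matched genes and in 11714 of all 32851 windows (35.7%). A match is a description of the sequence and not a binding site.

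The libraries held 210 and 225 Slc6a13 Thbs4 cells at telogen, 112 and 202 at anagen, and 19 and 9 in the KO. Their summed depth was 1724663 and 1465683 UMIs at telogen, 801584 and 1091028 UMIs at anagen, and 86365 and 67407 UMIs in the KO, out of library totals of 10615358 to 43317677 UMIs. The KO sums were the shallowest. The median cell held 7379.5, 5928, 6334.5, 4832, 4033 and 5103 UMIs, and its mitochondrial share was 5.24, 5.93, 5.51, 4.67, 4.22 and 2.23%. Over genes with enough counts, the log2 CPM of the libraries of a group correlated with r = 0.964 at telogen, 0.931 at anagen and 0.581 in the KO, where the points are genes that share these libraries. By Scrublet, 1, 12, 3, 5, 0 and 5 of the Slc6a13 Thbs4 cells were among the 5% of their library with the highest doublet score. These flagged cells, 5 of the 9 of KO S2 among them, are called likely doublets here. The flag is a rank that marks 5% of each library whatever its true rate of doublets. The deepest cell gave 16% of the summed UMIs in KO S1 and 34.8% in KO S2 (23424 of 67407 UMIs), against at most 3.11% in a WT library, and that cell of KO S2 held 50.3% of the UMIs of the fibroblast list there. Any pair of libraries shared at most 13 barcodes. RNA of Xist was present in the Slc6a13 Thbs4 cells of telogen S1 and both KO libraries (1616, 83 and 83 UMIs) and absent from the other three, whereas Ddx3y, a Y-linked gene, was at 0 in those libraries and at 184, 82 and 102 UMIs in telogen S2, anagen S1 and anagen S2. Female and male mice were therefore spread unequally over the groups, with both KO libraries alike and telogen mixed.

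Among gate cells, Slc6a13 Thbs4 cells made up 36.7% (95% Clopper-Pearson interval 32.8 to 40.8) in telogen S1, 26.2% (23.3 to 29.2) in telogen S2, 39.3% (33.6 to 45.2) in anagen S1 and 28.7% (25.4 to 32.2) in anagen S2. In the KO the share was 27.9% (17.7 to 40.1) in S1 and 19.6% (9.36 to 33.9) in S2. These intervals cover counting error only. The stages overlapped, and the mean share was 31.4% ± 7.46 at telogen and 34.0% ± 7.50 at anagen (SD, n = 2 each; exact two-sided permutation test, p = 0.667). For the KO the mean was 23.8% ± 5.92 (SD, n = 2; exact two-sided permutation test against telogen, p = 0.667). The smallest p that 2 libraries against 2 can reach is 0.3333. Of all kept cells the gate took 18.0 and 18.3% at telogen, 6.63 and 13.8% at anagen and 3.97 and 2.35% in the KO, so that the KO comparisons rest on 28 of 114 gate cells. The part of the sort in these shares of all cells was not tested.

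The 2 scores graded into each other without a gap. A difference of exactly 1 point, just inside the rule, was held by 93, 97, 53 and 110 Slc6a13 Thbs4 cells of the WT libraries (44.3, 43.1, 47.3 and 54.5% of them) and by 10 and 7 in the KO. Just outside lay 110, 140, 63, 139, 17 and 12 tied cells. Only 12, 12, 10, 14, 3 and 3 Slc6a13 Thbs4 cells held none of the 5 genes of the other score. The mean score for the naming genes was 4.07, 3.96, 3.84 and 3.69 in the WT libraries and 3.26 and 2.33 in the KO. The distribution of the score difference by library shows 1 continuous range.

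**Figure D1:**
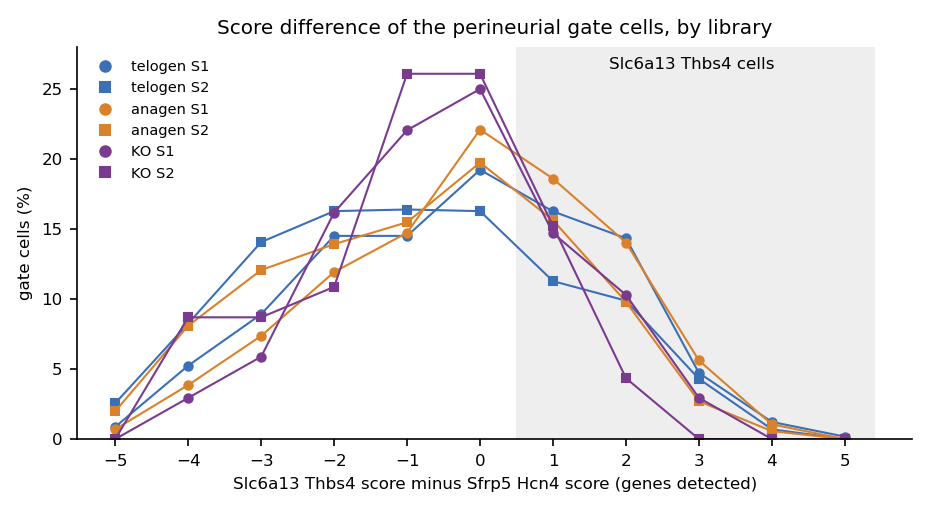
Percent of the gate cells of each library (vertical axis) at each difference between the score for Slc6a13, Thbs4, Crabp2, Tenm2 and Foxd1 and the score for Sfrp5, Hcn4, Cldn22, Lypd2 and C2 (horizontal axis), with 1 line per library. Cells at 1 and above are the Slc6a13 Thbs4 cells, and no empty interval separates them from the 110, 140, 63, 139, 17 and 12 tied cells at 0.

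The levels of the genes that chose the cells are a description and carry no test. Slc6a13 read 328, 360, 297 and 410 CPM in telogen S1, telogen S2, anagen S1 and anagen S2, 243 CPM in KO S1 and 0 CPM in KO S2. In KO S1 it came from 5 of 19 cells and in KO S2 from none of 9, so that the KO cells are placed by the other 4 genes and the name of the cells goes against the data in KO S2. Thbs4 read 596, 640, 509 and 576 CPM in the WT libraries and 2084 and 875 CPM in the KO. Crabp2 read 412, 375, 433, 413, 197 and 89.0 CPM in the same order, Tenm2 398, 482, 412, 378, 509 and 237 CPM, and Foxd1 266, 297, 333, 274, 266 and 297 CPM. The WT libraries lay close together for each of the 5 genes. All 5 genes were found together in 78, 76, 39 and 48 cells of the WT libraries and in 0 of the KO cells.

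Sharing of these genes with the Sfrp5 Hcn4 cells differed by gene. After thinning to 1500 UMIs, Slc6a13 was found in 41.2% of 772 Slc6a13 Thbs4 cells and 7.25% of 1255 Sfrp5 Hcn4 cells, and Crabp2 in 33.7 and 9.96%. Thbs4 was found in 49.1 and 23.0%, Tenm2 in 49.4 and 28.6%, and Foxd1 in 35.6 and 17.0%. Immune-like cells, which give the level of free RNA, held Slc6a13 in 0.260%, Thbs4 in 0.669%, Crabp2 in 0.297%, Tenm2 in 0.409% and Foxd1 in 0.371% of cells at the same depth. When cells were chosen again without Slc6a13 in the score, Slc6a13 was still found in 84.1, 75.0, 60.8 and 67.2% of the chosen cells of the WT libraries, against 40.5, 29.3, 35.9 and 36.9% of the Sfrp5 Hcn4 cells chosen by the same 4 genes. In the KO it was found in 2 of 16 and 0 of 9 chosen cells against 4 of 36 and 3 of 28 others. Left out in the same way, Thbs4 was found in 67.6, 68.6, 55.7 and 65.6% of the chosen cells against 51.7, 48.6, 57.2 and 47.2% of the others. Tenm2 was found in 85.0, 87.9, 81.2 and 71.2% against 72.9, 70.8, 84.5 and 60.7%, Crabp2 in 53.7, 52.5, 57.0 and 39.9% against 35.3, 29.3, 34.8 and 24.4%, and Foxd1 in 74.5, 69.5, 74.0 and 58.0% against 58.1, 53.0, 55.2 and 47.7%. The chosen cells had the higher share in each WT library for Slc6a13, Crabp2 and Foxd1, and in 3 of the 4 for Thbs4 and Tenm2. In KO S1 the chosen cells held Thbs4 in 9 of 9 against 32 of 47, Crabp2 in 3 of 17 against 4 of 33, Tenm2 in 9 of 11 against 23 of 43 and Foxd1 in 7 of 10 against 13 of 38. In KO S2 Thbs4 was found in 1 of 6 against 22 of 34, Crabp2 in 0 of 7 against 0 of 25, Tenm2 in 2 of 4 against 10 of 29 and Foxd1 in 2 of 3 against 13 of 32.

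**Figure D2:**
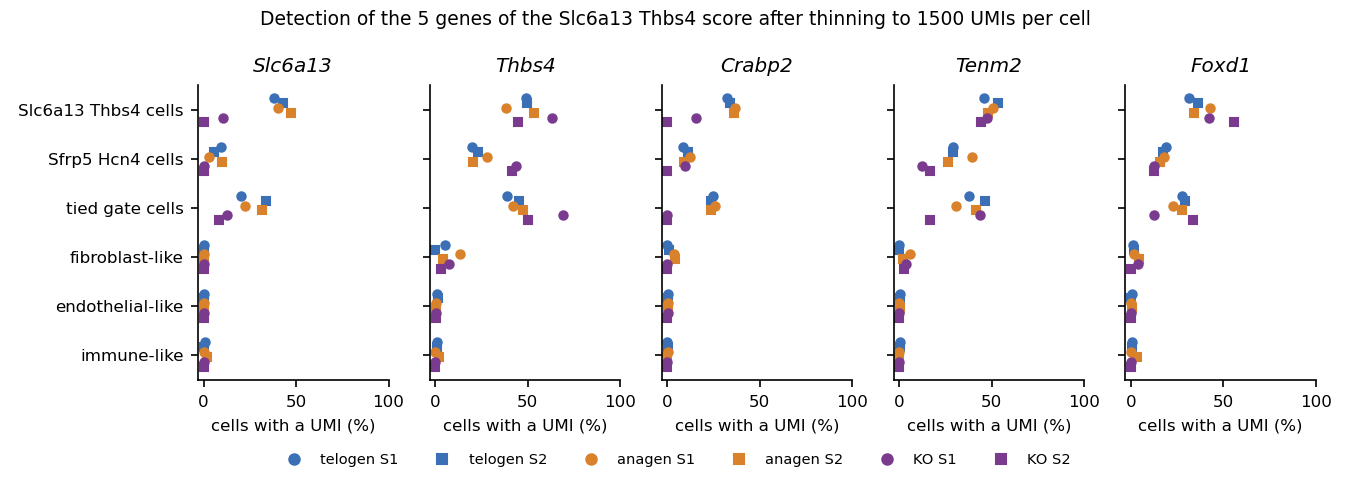
Percent of cells with a UMI of each of the 5 naming genes after thinning to 1500 UMIs (horizontal axis) in 6 cell populations (vertical axis), with 1 dot per library. Over all libraries Slc6a13 lies at 41.2% in Slc6a13 Thbs4 cells and 7.25% in Sfrp5 Hcn4 cells and Thbs4 at 49.1 and 23.0%, while immune-like and endothelial-like cells stay under 1% over all libraries for all 5 genes.

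Of the opposing score, Sfrp5 and C2 stayed on in the Slc6a13 Thbs4 cells of each library and Lypd2 in the WT only. Hcn4 and Cldn22 were low in the WT. Sfrp5, a secreted WNT inhibitor, read 889, 751, 969 and 1247 CPM in the WT libraries and 984 and 682 CPM in the KO, and C2, a complement protease, 372, 350, 378, 498, 359 and 312 CPM. Hcn4, a pacemaker ion channel, was low at 16.8, 20.5, 4.99, 12.8, 11.6 and 0 CPM. Lypd2 read 196, 181, 256 and 265 CPM in the WT libraries and 0 CPM in both KO libraries. Cldn22 read 24.9, 53.2, 33.7 and 35.7 CPM in the WT libraries and 220 and 59.3 CPM in the KO. After thinning, Sfrp5 was found in 53.1% of Slc6a13 Thbs4 cells and 89.2% of Sfrp5 Hcn4 cells, and Hcn4 in 1.94 and 38.7%.

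Cdh5, the gene whose promoter drove the label, was found after thinning in 19.1, 22.9, 13.4 and 24.0% of the Slc6a13 Thbs4 cells of the WT libraries, in 6 of 19 in KO S1 and in 4 of 9 in KO S2. Immune-like cells held it in 0 to 1.72% and endothelial-like cells (at least 2 Pecam1 UMIs, no Ptprc UMI) in 53.1 to 65.7%. The Slc6a13 Thbs4 cells lay between these populations in each library. Acvrl1, the gene targeted in the KO, gave 21, 13, 13, 22, 2 and 2 UMIs in all. It was found after thinning in 0, 0, 3.57 and 3.0% of these cells in the WT and in 1 of 19 and 0 of 9 in the KO, and in immune-like cells in 4.35, 4.57, 4.0 and 6.90% in the WT. Over the WT libraries immune-like cells held it in 4.51% of cells, against 1.34% here and 2.84% in Sfrp5 Hcn4 cells. Immune-like cells are thus no measure of free RNA for this gene. Neither presence nor absence is read from these values. Without thinning, 65 of 749 Slc6a13 Thbs4 cells of the WT held a UMI. The paper reports detectable Alk1 in its perineurial cells. Counts at the 3′ end need not cover the deleted part of the gene and do not check the label.

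Over both perineurial populations 8675 genes had at least 100 UMIs. The genes of the rule, sex-linked genes and clone or predicted gene symbols were left out of this count. The median of their log2 ratios between Slc6a13 Thbs4 and Sfrp5 Hcn4 cells, over all 6 libraries, was -0.03. Over all 4 WT libraries 1532 genes were higher (17.7%) and 1637 lower (18.9%) in the Slc6a13 Thbs4 cells, and 63 and 114 of them by over 2-fold in each. These ratios are a description, since the rule used the contrast of the same cells. Sox9, a transcription factor of neural crest and cartilage, led the genes ranked by the least extreme of the 6 libraries. It read 132, 127, 111 and 89.8 CPM in the Slc6a13 Thbs4 cells of the WT libraries against 22.5, 21.3, 6.62 and 16.5 CPM in their Sfrp5 Hcn4 cells, and 579 and 104 CPM against 78.0 and 0 CPM in the KO. The populations did not overlap, and 0.772% of the 8675 genes were likewise higher without overlap over all 6 libraries. After thinning Sox9 was found in 13.2 and 2.15% of cells, with 0.0743% of immune-like cells.

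Other genes were higher on the Slc6a13 Thbs4 side. Ngfr, the low-affinity neurotrophin receptor, read 34.2, 31.4, 32.4 and 44.0 CPM in the WT against 4.81, 7.61, 5.30 and 6.50 CPM. Cspg4, the NG2 proteoglycan, read 248, 247, 198 and 199 CPM against 64.7, 56.2, 67.5 and 46.1 CPM. Myoc (myocilin, a secreted glycoprotein) had log2 ratios of 2.28 to 4.67 in the WT. Slc22a3, an organic cation transporter, had 2.06 to 3.2, Cxadr, an adhesion protein of cell junctions, 1.90 to 2.35, and F3, tissue factor, 1.27 to 2.05. Egr3, an immediate early transcription factor, had 1.20 to 1.58 and Dusp5, a phosphatase of ERK, 1.40 to 1.62. Of the 23 immediate early and heat shock genes listed, 13 were higher in all 4 WT libraries and 0 lower. Their median over all 6 libraries was 0.35.

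Among the genes on the Sfrp5 Hcn4 side, Rspo1, a secreted activator of WNT signalling, read 2.9, 14.3, 2.5 and 14.7 CPM in the Slc6a13 Thbs4 cells of the WT libraries against 119, 152, 151 and 219 CPM in Sfrp5 Hcn4 cells. Abcb1a, the drug efflux pump P-glycoprotein, read 7.54, 4.78, 11.2 and 12.8 CPM against 74.9, 80.9, 132 and 114 CPM. Fmod (fibromodulin, which binds collagen) read 13.3, 8.19, 12.5 and 13.7 CPM against 141, 105, 185 and 130 CPM. None of these 3 genes overlapped between the populations in the WT, where 7.99% of the 8675 genes were lower without overlap. Gpx3, a secreted glutathione peroxidase, had log2 ratios of -4.64 to -3.28 in the WT, and C3, the central complement component, -4.95 to -2.28.

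The gene lists described the same contrast, with the genes of the rule left out of them. The counts are over the 4 WT libraries and the medians over all 6 libraries, the KO among them. Of 9 measured genes of the IGF axis, 8 were lower in the Slc6a13 Thbs4 cells and 0 higher, with a median log2 ratio of -1.03. Of 35 collagen genes and their processing enzymes 19 were lower and 0 higher (median -0.37), of 17 WNT genes 8 were lower and 3 higher (-0.07), and of 15 barrier transporters 9 were lower and 2 higher (-0.75). Slc2a1 was among those lower, with ratios of -1.51 to -1.09. The hedgehog genes parted: Gli1, a transcriptional target of hedgehog, had ratios of 0.36 to 0.83 and Gli3 0.84 to 1.67, while Gas1, a hedgehog coreceptor, had -2.59 to -0.98. Bmp7, a BMP ligand, had 1.41 to 2.78.

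**Figure D3:**
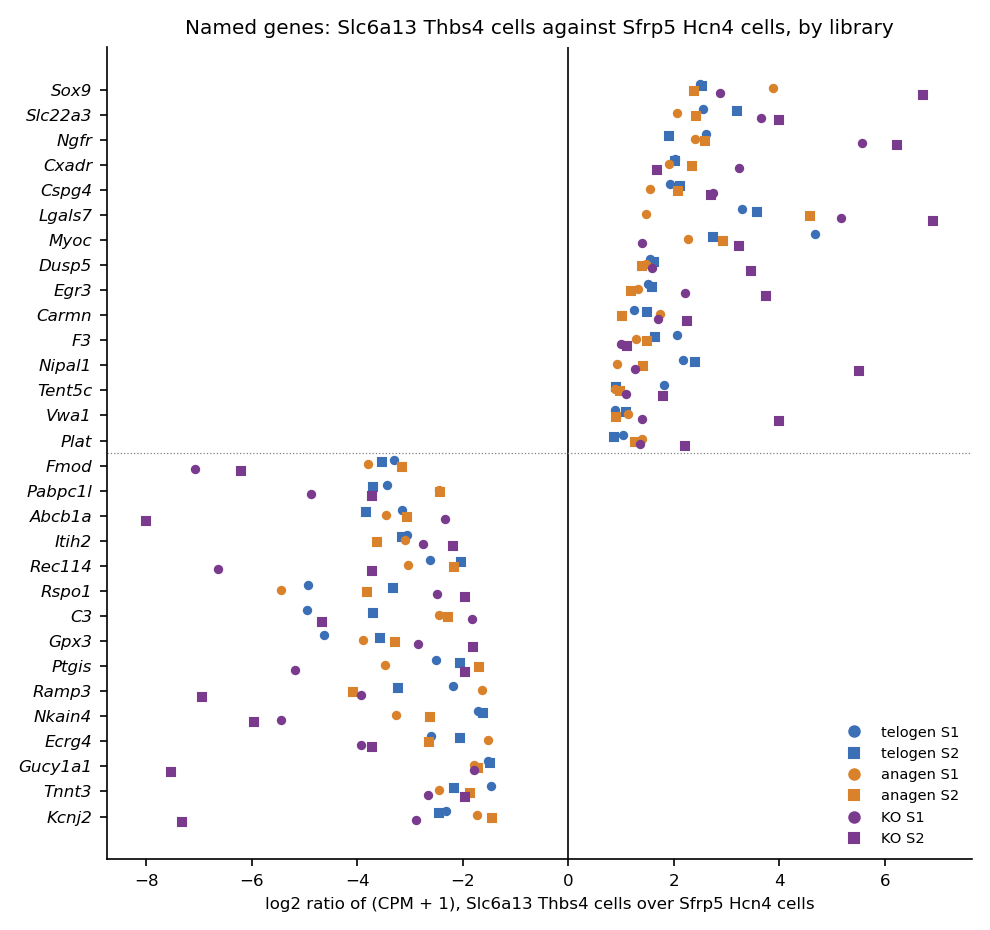
Log2 ratio of CPM + 1 in Slc6a13 Thbs4 cells over that in Sfrp5 Hcn4 cells (horizontal axis) for the 30 genes named by rank, 15 each way, with 1 dot per library. Sox9 lies between 2.37 and 3.88 in the 4 WT libraries and Fmod between -3.79 and -3.15, and the widest dots belong to the KO libraries, where several genes were at 0 UMIs in 1 population.

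Some Slc6a13 Thbs4 cells held markers of other cell types, unequally between groups. In telogen S1 and S2, 23 (11%) and 14 (6.22%) of them held a UMI of at least 4 of 10 Schwann cell genes, and in the other 4 libraries 0 did. These Schwann-marked cells carried 97.8 and 96.8% of the Schwann list's UMIs and a median of 12689 and 10870 UMIs, against 6843 and 5630 in the rest. All held Igfbp6, and 0 of the 23 and 8 of the 14 were likely doublets by Scrublet. The Schwann list summed to 2204, 1550, 53.6, 54.1, 11.6 and 134 CPM in the 6 libraries, and without these and other such cells to 58.1, 55.9, 62.4, 51.9, 11.6 and 144 CPM. Sox10, the transcription factor that defines the lineage, read 18.6 and 4.09 CPM at telogen and was at 0 in both anagen and both KO libraries.

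Keratinocyte genes moved the other way. A UMI of at least 4 of 11 such genes was held by 0 cells at telogen, 5 and 2 at anagen and 0 and 1 in the KO, although the WT sort kept GFP- cells. Igfbp6 was held by 1 of the 5 and 0 of the 2 cells at anagen, and not by the 1 cell of the KO. The list summed to 478, 354, 1421, 1496, 92.6 and 1632 CPM, and to 355, 311, 470, 592, 92.6 and 64.2 CPM without the cells that hold at least 4 markers of any listed type other than fibroblasts. Lgals7, a galectin of stratified epithelia, was its most abundant gene in the WT libraries at 439, 327, 704 and 770 CPM. Without those cells it still read 318, 283, 412 and 554 CPM. All Sfrp5 Hcn4 cells of these libraries read 43.9, 26.7, 252 and 31.3 CPM. Most of the list's sum that remained in the WT was thus Lgals7 in the other Slc6a13 Thbs4 cells. Krt5 was at 0 in both telogen libraries, and at 53.6 and 124 CPM at anagen came from 5 and 2 cells. The 12-gene endothelial list summed to 42.9, 58.7, 170, 130, 0 and 0 CPM and was led by Plvap in 2 of the 4 WT libraries, the 16-gene immune list summed to 96.3, 164, 49.9, 61.4, 11.6 and 0 CPM with Cd74 ahead in 3 of them, and the 10-gene pericyte list read 967 CPM in anagen S2, where 1 cell held 96.1% of its UMIs, and 40.2 CPM without all 6 cells there with markers of another type. The 5 red cell genes summed to at most 23.2 CPM and the 4 melanocyte genes to at most 12.3 CPM. Cells with at least 4 markers of the Schwann, keratinocyte, endothelial, immune, pericyte or melanocyte list numbered 24, 16, 7, 6, 0 and 1, and the comparisons below are given with and without them. A UMI of at least 4 of the 8 fibroblast genes was held by 76, 64, 41 and 59 cells of the WT libraries (36.2, 28.4, 36.6 and 29.2%) and by 3 and 1 in the KO (15.8 and 11.1%), and these cells were not left out.

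**Figure D4:**
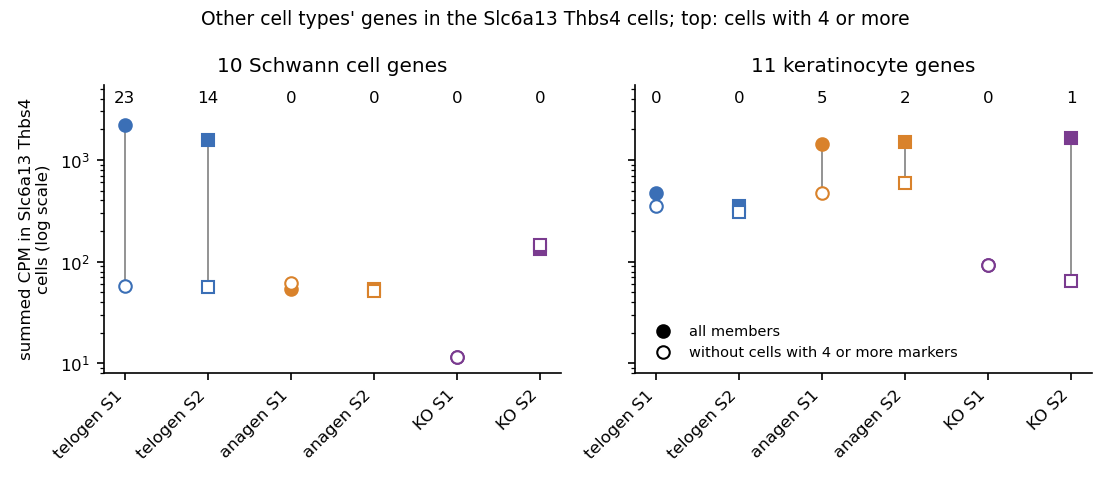
Summed CPM (log axis) of 10 Schwann cell and 11 keratinocyte genes in the Slc6a13 Thbs4 cells of each library, with filled points for all cells and open points without cells that hold 4 or more markers of another type, and above them the number of such cells. The Schwann sum of 2204 and 1550 CPM in the telogen libraries drops to 58.1 and 55.9 CPM, and the keratinocyte sum of 1421 and 1496 CPM in the anagen libraries to 470 and 592 CPM.

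Between the stages 24 genes rose at anagen and 2 fell both with and without the cells of other types. Among them Myoc, Smoc2, Cpxm2, Spink1 and Serpinf1 rose by 2 to 5 times by the edgeR fit. The Schwann cell and keratin genes that gave the largest changes came from the few cells just described. Of 9060 genes tested, 81 were higher (0.894%) and 52 lower (0.574%) at anagen, together 133 (1.47%), where a call needed a fold of more than 1.3 and a Benjamini-Hochberg adjusted p below 0.05 in the edgeR quasi-likelihood test. Without the cells of other types it was 25 (0.286%) and 13 (0.149%) of 8735, 0.435% either way, and 26 genes were called in both. DESeq2 called 71 higher and 30 lower. The count rested on the libraries used: it was 62 of 9214 genes tested without telogen S1, 94 of 9209 without telogen S2, 761 of 9996 without anagen S1 and 504 of 9995 without anagen S2. These fits left 1 library in a group, and the spread came from the other group alone. Without telogen S1 the remaining mice were of 1 sex by the genes above. Over all gate cells, whose choice did not use them, the 5 naming genes were not called by edgeR.

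Among the 24, Myoc read 51.6 and 56.6 CPM at telogen and 273 and 174 CPM at anagen, with no overlap, and rose by 2.13 ± 0.23 on the log2 scale (SE; edgeR adjusted p = 0.00192). Over all gate cells Myoc was the 1 gene called of 11389, or 0.00878% (2.54, adjusted p = 0.0485). Cpxm2, a carboxypeptidase-like secreted protein, read 19.1 and 16.4 against 64.9 and 88.9 CPM (2.21 ± 0.25, adjusted p = 0.0023). Smoc2, a calcium-binding matrix protein, read 274 and 291 against 561 and 525 CPM (1.04 ± 0.14, adjusted p = 0.00598), and Serpinf1 (PEDF, a secreted serpin that restrains vessel growth) 76.5 and 106 against 200 and 211 CPM (1.27 ± 0.19, adjusted p = 0.0108). In all of these the stages did not overlap, as in 46.9% of the genes tested.

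Among the other called genes, Spink1, a secreted trypsin inhibitor, read 82.3 and 104 CPM at telogen and 403 and 237 CPM at anagen (1.87 ± 0.25, adjusted p = 0.00514). Bcam, a laminin receptor, read 98.0 and 89.4 against 193 and 232 CPM (1.28 ± 0.17, adjusted p = 0.0053). Id3, a target of BMP signals that blocks other transcription factors, read 702 and 689 against 1083 and 1282 CPM (0.86 ± 0.14, adjusted p = 0.0170). Csf3, the granulocyte growth factor G-CSF, gave 2 and 4 UMIs at telogen and 30 and 21 at anagen (3.89 ± 0.57, adjusted p = 0.00865). Gstm1, a glutathione transferase, H2-T23, a nonclassical MHC protein, Mxra8 and Crip1 rose as well, by 0.91 to 1.17 on the log2 scale. Without the cells of other types these genes kept an adjusted p under 0.05 by the same test. Of the 24, 10 were ribosomal proteins.

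Genes that fell at anagen were few once the cells of other types were left out. Pi15, a secreted protease inhibitor, gave 23 and 23 UMIs at telogen and 0 and 1 at anagen, 27.3-fold lower with a 95% counting interval of 4.66 to 1101. Top2a, the topoisomerase of dividing cells, read 26.7 and 36.8 CPM against 9.98 and 7.33 CPM (-1.79 ± 0.37, adjusted p = 0.0457). Of 11 cell cycle genes tested it was the 1 called (0 by DESeq2), with a median of -1.17, and without the cells of other types 5 of 10 were called lower, among them Mki67 and Cdk1. Without likely doublets 0 were called, and Top2a had -2.42 (adjusted p = 0.115). Mki67 read 33.6 and 28.7 CPM against 13.7 and 1.83 CPM in all Slc6a13 Thbs4 cells (-2.05, adjusted p = 0.103). The stages did not overlap for Mki67, but the gene missed the threshold there.

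Among the named genes, Schwann cell genes had the largest falls and keratins the largest rises. Ncmap, Mal, Cldn19, Gjc3, Mag, Cadm4, Plekhb1, Aatk and Pllp were at least 44.1, 42.5, 33.6, 21.6, 19.6, 13.4, 12.5, 11.7 and 11.3-fold lower, with 0 UMIs at anagen taken as 3 over the group. Krt17 and Ly6d were at least 70.8 and 39.3-fold higher. Of 8 Schwann genes tested 6 fell and of 10 keratinocyte genes tested 9 rose (6 and 7 by DESeq2), and without the cells of other types 0 of 2 and 0 of 2 were called. These calls follow the 23 and 14 Schwann-marked and the 5 and 2 keratinocyte-marked cells, which hold most of the UMIs of both lists.

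Of 78 cytosolic ribosomal genes tested, 17 rose (18 by DESeq2) and 0 fell with a median log2 fold change of 0.41, against 0.0044 over all genes, and 77 had a positive value. Without the cells of other types 10 rose and the median was 0.22, and without likely doublets 9 rose. Rpl41 read 1324 and 1392 CPM at telogen and 2829 and 2746 CPM at anagen (1.13 ± 0.13, adjusted p = 0.00254), and Rps28 355 and 441 against 1613 and 830 CPM (1.71 ± 0.27, adjusted p = 0.0132). Neither gene overlapped between stages. Of 79 genes of oxidative phosphorylation 5 rose by either tool (median 0.22) and 0 without those cells or without likely doublets. Of 21 chaperones and folding genes of the endoplasmic reticulum 0 were called, and all 21 had a negative value (median -0.39).

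In the pathway lists single genes were called at anagen. Id3 was the 1 of 35 BMP and TGF-β genes, by DESeq2 too, and Col15a1, a basement membrane collagen, the 1 of 20 basement membrane genes, where DESeq2 called Col4a1 (lower) in its place. Col15a1 read 33.0 and 31.4 against 91.1 and 60.5 CPM (1.31 ± 0.25, adjusted p = 0.0311). In the glucocorticoid and fasting list, Tsc22d3 (GILZ, a glucocorticoid-induced protein) read 211 and 452 against 122 and 101 CPM (-1.48 ± 0.31, adjusted p = 0.0467), and Mt1, a metallothionein, rose (1.18, adjusted p = 0.0381), and without the cells of other types both had an adjusted p of 0.061. DESeq2 called neither and 1 other gene of this list, Mt2, higher. Of 10 hedgehog, 22 WNT, 34 collagen, 16 barrier transporter, 28 axon guidance, 13 circadian, 18 developmental transcription factor, 7 IGF axis, 7 neurotrophic and 7 meningeal barrier genes tested, 0 were called, and likewise of 23 immediate early and heat shock, 9 further perineurial, 5 immune and 1 pericyte genes and of the 14 matrix and 7 cytoskeleton genes that the study chose on these libraries. With the endoplasmic reticulum genes these are 17 lists and 242 tests, of which 60 had an unadjusted p under 0.05 by edgeR and 0 were called by DESeq2. Genes of the rule were counted among them and carry no test here. They were 1 hedgehog, 3 WNT, 1 barrier transporter, 2 axon guidance and 2 developmental transcription factor genes. Of the tight junction and retinoid genes below, 2 and 1 were likewise genes of the rule. Cldn19 was the 1 of 14 tight junction genes called and Tyrp1 the 1 melanocyte gene tested, both lower, and neither had the counts to be tested without the cells of other types. Of the 7 fibroblast genes Lum was called (0.99, adjusted p = 0.0490), of 4 endothelial genes Egfl7 (2.22) and of 10 retinoid genes Aldh1a3, of which DESeq2 called Lum and Aldh1a3, and without the cells of other types Lum had 1.09 (adjusted p = 0.0537), Egfl7 had 1.40 (adjusted p = 0.268) and Aldh1a3 was not tested.

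In the KO 14 of 31 collagen and processing genes and 40 of 79 genes of oxidative phosphorylation fell in the Slc6a13 Thbs4 cells, and 11 of 16 genes of the glucocorticoid and fasting list rose, but none of these calls was made without the likely doublets, which left 4 cells in KO S2. Col3a1, Serpinh1 and Tmsb4x fell by over 4 times by the edgeR fit in these 28 cells, and Tsc22d3, Sgk1 and the metallothioneins rose. Of 7809 genes tested, 242 were higher (3.1%) and 421 lower (5.39%), together 663 (8.49%), by the same edgeR test, and without the cells of other types 297 (4.01%) and 321 (4.33%) of 7414, 8.34% either way, of which 543 were called in both. Of the 3 lists above, 13 collagen and processing genes, 39 of oxidative phosphorylation and 10 of the glucocorticoid list were called in these directions without those cells. The median log2 fold change of all genes was -0.28. The KO comparison shares its telogen libraries with the stage comparison. It rests on 19 and 9 cells, and the count was 2 of 2341 genes tested without telogen S1, 53 of 2333 without telogen S2, 1223 of 9868 without KO S1 and 1112 of 9865 without KO S2, where leaving out telogen S2 left mice of 1 sex, and 38 of 697 (20 higher, 18 lower) with equal numbers of cells and UMIs per library. Without likely doublets 0 of 7379 genes were called by edgeR, and 1466 had an unadjusted p under 0.05. Of the 242 genes that were higher, 24 came from under 5 KO cells, and 58 from at most 2 cells in a KO library. Without the deepest cell of each library 786 of 7846 were called, and DESeq2 called 256 higher and 191 lower with all cells. In the gate cells outside this population, which come from the same mice, 483 of the 663 genes were called in the same direction (72.9%; 27.6% of the 1753 calls there, which were 18.1% of the 9705 genes tested).

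Of 31 collagen and processing genes tested 14 fell and 1 rose (8 and 1 by DESeq2, which did not call Col1a1), with a median of -1.57 (-1.50 with genes at 0 UMIs set to their bound, where all genes had -0.22). Col3a1 read 2518 and 3264 CPM at telogen and 220 and 623 CPM in the KO, with no overlap (-2.99 ± 0.42, adjusted p = 0.000873). Col1a1 read 2111 and 2486 against 46.3 and 860 CPM (-2.57 ± 0.65, adjusted p = 0.0229), and Col1a2 2020 and 2572 against 475 and 1009 CPM (-1.83 ± 0.37, adjusted p = 0.00739). The KO libraries differed widely from each other for Col1a1, and both stayed under telogen. Serpinh1, the collagen chaperone HSP47, read 729 and 818 against 92.6 and 223 CPM (-2.53 ± 0.41, adjusted p = 0.00251), and Ppib, a prolyl isomerase of collagen folding, 750 and 840 against 162 and 208 CPM (-2.31 ± 0.36, adjusted p = 0.00196). Others of the list were not called, among them P4ha1 and P4hb, subunits of prolyl 4-hydroxylase, at 84.1 and 96.9 against 162 and 104 CPM and at 158 and 190 against 139 and 178 CPM.

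The gene that rose was Lox, the enzyme that crosslinks collagen, at 12.2 and 17.7 CPM in telogen and 116 and 490 CPM in the KO (4.07 ± 0.56, adjusted p = 0.000873), where 6 of 19 and 2 of 9 cells held it. In Sfrp5 Hcn4 cells Lox had a log2 fold change of 0.97 (adjusted p = 0.0776). Of 20 basement membrane genes 4 fell and Col4a4, a type IV collagen chain, rose, from 67.3 and 73.0 to 347 and 252 CPM (1.92 ± 0.31, adjusted p = 0.00229). Col18a1 gave 449 and 450 UMIs at telogen and 2 and 0 in the KO, 21.7-fold lower with a counting interval of 5.98 to 179, and Hspg2 (perlecan) 241 and 237 against 1 and 1 UMIs, 11.5-fold lower with 3.17 to 95.4. Sparc, a collagen-binding matrix protein, read 3948 and 4739 against 1563 and 1098 CPM (-1.90 ± 0.30, adjusted p = 0.00225). Of the 14 matrix genes that the study named from these libraries 13 fell (11 by DESeq2, median -2.37), and of its 7 cytoskeleton genes 5 (4 by DESeq2, median -1.92). The study chose both lists on these samples, so they are not independent evidence of the direction. Among them Lgals1 (galectin 1) read 1223 and 1408 against 92.6 and 223 CPM (-3.29 ± 0.41, adjusted p = 0.000627) and Tmsb4x (thymosin β4, which binds actin) 6052 and 6412 against 1633 and 1587 CPM (-2.14 ± 0.28, adjusted p = 0.000831).

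**Figure D5:**
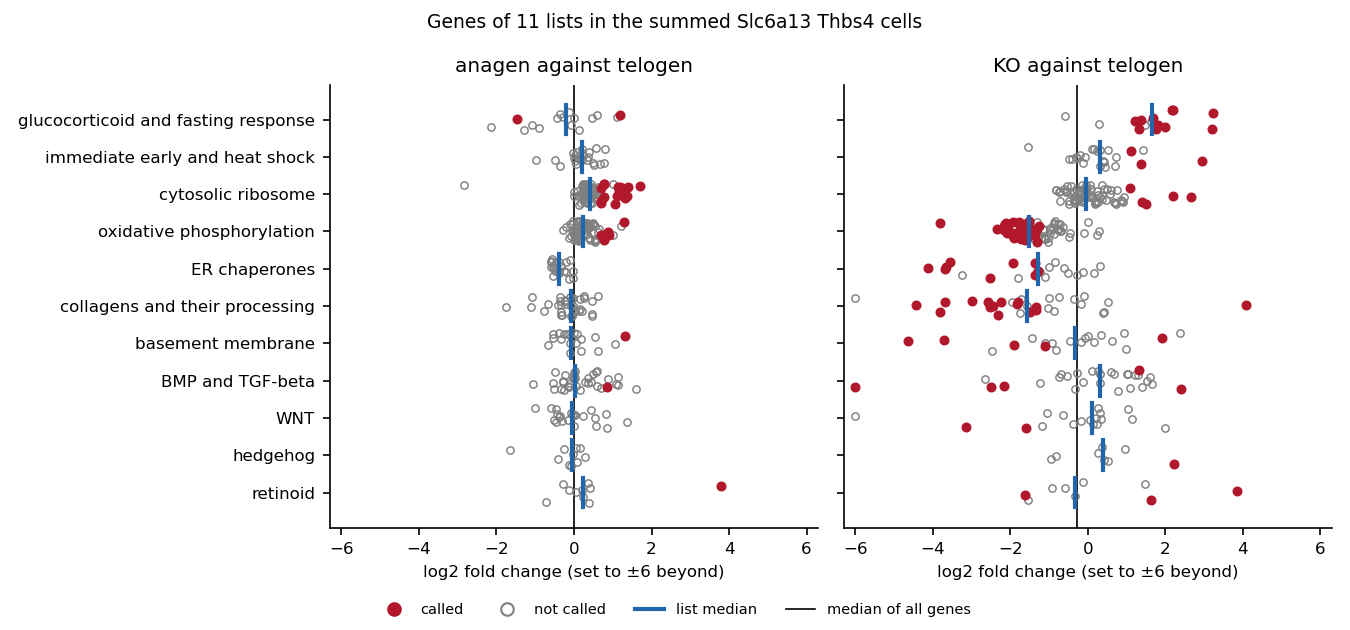
Log2 fold change (horizontal axis, clipped at 6 each way) of each tested gene of 11 lists in Slc6a13 Thbs4 cells, anagen against telogen and KO against telogen, which share the telogen libraries, with called genes in red, the median of the list in blue and that of all genes in black. In the KO the collagen and oxidative phosphorylation medians lie at -1.57 and -1.51 and the glucocorticoid median at 1.66, against -0.28 for all genes, while between the stages the ribosomal list lies at 0.41.

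Genes of the glucocorticoid and fasting response rose in the KO, 11 of 16 tested (10 by DESeq2) and 0 lower, with a median of 1.66. Tsc22d3 read 211 and 452 CPM at telogen and 1227 and 1780 CPM in the KO (1.99 ± 0.38, adjusted p = 0.00603), and Sgk1, a kinase that glucocorticoids induce, 91.0 and 76.4 against 220 and 475 CPM (1.81 ± 0.35, adjusted p = 0.00603). Mt2, a metallothionein, read 288 and 452 against 1690 and 1187 CPM (1.77 ± 0.33, adjusted p = 0.00566). The groups did not overlap for these genes, as in 57.4% of all genes tested. Cdkn1a, the cell cycle inhibitor p21, read 234 and 223 against 718 and 1647 CPM (2.18 ± 0.37, adjusted p = 0.00321), and when cells were thinned before scoring its value was -0.17. Errfi1, an inhibitor of the EGF receptor, was called (3.21, adjusted p = 0.0103) although its libraries overlapped, at 31.3 and 34.1 against 23.2 and 727 CPM. Without KO S2, Errfi1 had -0.66, and without the deepest cell of each library it missed the threshold (1.19, adjusted p = 0.266). Fkbp5, a chaperone of the glucocorticoid receptor, read 27.8 and 106 against 208 and 148 CPM and was not called (1.26, adjusted p = 0.231).

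Nuclear genes of oxidative phosphorylation fell, 40 of 79 tested (24 by DESeq2) and 0 higher, with a median of -1.51. Cox6c, a subunit of cytochrome c oxidase, read 998 and 1123 CPM at telogen and 371 and 163 CPM in the KO (-2.16 ± 0.37, adjusted p = 0.00336), Ndufa4 309 and 399 against 127 and 59.3 CPM, and Atp5h, of the ATP synthase, 619 and 650 against 127 and 223 CPM. None of the 3 overlapped. The mitochondrial share of UMIs, 5.24 and 5.93% at telogen, was 4.22 and 2.23% in the KO, and its part in this result was not tested. Of 21 endoplasmic reticulum genes 9 fell (3 by DESeq2, 5 without the cells of other types, median -1.29), while Hspa5 (BiP), its most abundant chaperone, read 1628 and 1308 against 996 and 3175 CPM (0.32, adjusted p = 0.675). Of 78 ribosomal genes 5 rose (median -0.05), among them Rps28, which read 355 and 441 against 1378 and 1202 CPM (1.5).

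Signalling genes changed singly. Id2 read 33.6 and 17.1 CPM at telogen and 139 and 178 CPM in the KO (2.41 ± 0.51, adjusted p = 0.00962), where 2 of 19 and 2 of 9 cells gave the 12 and 12 UMIs, and Id3 702 and 689 against 1563 and 1172 CPM without passing the test (0.79, adjusted p = 0.112). Of 29 BMP and TGF-β genes 2 rose and 3 fell (1 and 2 by DESeq2), the latter Fstl1, Inhba and Ltbp1. Gas1 read 53.9 and 27.3 against 232 and 208 CPM (2.23 ± 0.43, adjusted p = 0.00608), the 1 of 8 hedgehog genes called. Ptch1, also among the 8, is a gate gene and carries no test. Of 18 WNT genes 2 were called lower, of which Wnt6 is a gate gene and carries no test here. Sfrp1, a WNT inhibitor, read 190 and 215 against 46.3 and 0 CPM (-3.15 ± 0.59, adjusted p = 0.00566). Igf1 gave 173 and 138 UMIs at telogen and 0 and 0 in the KO, at least 5.0-fold lower, and Igfbp5 read 208 and 264 against 69.5 and 14.8 CPM (-2.57 ± 0.50, adjusted p = 0.00615). With Igfbp7 these made 3 of 7 IGF axis genes that fell, and Igf1 was the 1 of 7 neurotrophic genes called. Of 9 retinoid genes Dhrs3, with 3 and 6 UMIs from 2 and 1 KO cells, and Rarg rose (Crabp2, which chose the cells, is described above), of 25 axon guidance genes Ntn4, a netrin, rose and Sema3c fell, and of 12 circadian genes Tef rose. Of the WNT and axon guidance genes tested, 3 and 2 are genes of the rule and carry no test.

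Of 13 barrier transporters 3 rose (2 by DESeq2), among them Slc1a5, a glutamine transporter, from 69.6 and 68.2 to 301 and 193 CPM (1.68, adjusted p = 0.00662), and Slc38a2, which carries neutral amino acids, from 339 and 280 to 1251 and 935 CPM (1.63, adjusted p = 0.00566). Slc6a13, which chose the cells, is also among the 13 and carries no test. Slc3a2, a chain of amino acid exchangers, read 393 and 259 CPM at telogen and 289 and 178 CPM in the KO, and, like Slc2a1 (0.29, adjusted p = 0.607) and Itgb4 (0.04, adjusted p = 0.958), was not called. Gja1, the gap junction protein connexin 43, read 387 and 290 against 1528 and 801 CPM (1.60, adjusted p = 0.0100), the 1 of 8 meningeal barrier genes called. Of 12 tight junction genes Cldn19 was called lower, and without the cells of other types it was not tested. Hspa1b, an inducible heat shock protein, read 36.5 and 25.9 against 289 and 267 CPM (2.95 ± 0.36, adjusted p = 0.000618), and with Egr1 and Nr4a1 made 3 of 23 immediate early and heat shock genes that rose. Of 18 developmental transcription factors, 9 cell cycle, 9 further perineurial, 1 immune and 1 pericyte genes 0 were called by edgeR, 11 of these 38 had an unadjusted p under 0.05, and DESeq2 called 1, Zic1. Of the developmental and tight junction genes tested, 2 and 2 are genes of the rule and carry no test.

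Among genes with the largest rise, Ccn2, a matricellular growth factor, read 147 and 160 CPM at telogen and 1031 and 1988 CPM in the KO (3.11 ± 0.36, adjusted p = 0.000618). Pdgfra rose from 28.4 and 21.8 to 197 and 341 CPM (3.18 ± 0.41, adjusted p = 0.000827), while of the other 6 fibroblast genes tested Lum and Cd34 fell. Peg3, an imprinted transcription factor, read 36.0 and 30.0 against 151 and 727 CPM (3.46), and Myc 8.70 and 15.7 against 162 and 74.2 CPM (3.15). The groups did not overlap for any of these. The 12 named genes with the largest fall were all at 0 UMIs in the KO. Of 7 Schwann genes tested 5 were called lower and of 2 keratinocyte genes Lgals7, and without the cells of other types 0 of 1 Schwann gene and 1 of 2 keratinocyte genes were called, the latter lower. Fdps, an enzyme of cholesterol synthesis, was at least 6.17-fold lower, with 0 UMIs in the KO taken as 3 over the group.

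Over all gate cells the genes that define the cells could be compared between genotypes without the choice of subtype. Of 10659 genes tested there 873 were higher (8.19%) and 995 lower (9.33%). Slc6a13 read 190 and 151 CPM at telogen and 89.0 and 19.3 CPM in the KO, with no overlap (-1.62 ± 0.41, adjusted p = 0.0241). Crabp2 read 240 and 178 against 103 and 29.0 CPM (-1.65 ± 0.38, adjusted p = 0.0175). Thbs4 moved the other way, at 405 and 346 against 1238 and 782 CPM (1.35 ± 0.25, adjusted p = 0.0067). Tenm2 (-0.48, adjusted p = 0.270) and Foxd1 (-0.21, adjusted p = 0.535) were not called. Of the opposing genes Lypd2 gave 1845 and 2866 UMIs against 1 and 0, and Cldn22, a claudin, rose (1.33, adjusted p = 0.0177). Krt19 fell from 548 and 483 to 116 and 164 CPM (-2.0 ± 0.23, adjusted p = 0.000865). Genes on which the subtype score rests thus differed between the genotypes in both directions, and the 28 KO cells were picked with this shift in place.

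Whether the response differed between Slc6a13 Thbs4 and Sfrp5 Hcn4 cells was tested as an interaction with the library as a block. For the stage 26 of 10289 genes were called (0.253%), 5 with a larger (0.0486%) and 21 with a smaller value (0.204%) in the Slc6a13 Thbs4 cells, and without cells of other types 1 of 9695 (0.0103%) with a smaller value, Cilp, a matrix protein of cartilage. Cilp gave 10 and 15 UMIs at telogen and 0 and 0 at anagen in the Slc6a13 Thbs4 cells, and 6 and 25 against 46 and 27 in the Sfrp5 Hcn4 cells. For the KO 15 of 9036 genes were called (0.166%), 12 larger (0.133%) and 3 smaller (0.0332%), and without those cells 1 of 8785 (0.0114%) with a larger value, Tnfaip6, a hyaluronan-binding protein. Tnfaip6 gave 61 and 272 UMIs at telogen and 2 and 108 in the KO in the Slc6a13 Thbs4 cells, where the groups overlapped, and 265 and 784 against 0 and 0 in the Sfrp5 Hcn4 cells. Without the deepest cell of each library Tnfaip6 missed the threshold (7.95, adjusted p = 0.541 by edgeR). Mag, a Schwann cell gene among the stage calls, was no longer tested without the cells of other types.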

How the data were processed

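Single tdTomato+ cells of 6 mice (2 per group) were measured. The authors prepared Chromium 3′ v3 libraries, and deposited UMI counts by gene and barcode, which were neither normalized nor pooled (Cell Ranger 6.0.1, mm10 and Seurat 4.0 per the submitters' processing notes). Every deposited barcode held at least 500 UMIs. Cells were filtered and chosen as described above. Doublets were left in and removed in an alternative. Strand use of the counting is not given in the sources used here, and overlapping genes may share reads.

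Counts were summed per library and tested with edgeR 4.0.16 (filterByExpr, TMM, quasi-likelihood F test, Benjamini-Hochberg over all genes tested, R 4.3.3, limma 3.58.1), with calls at a fold of more than 1.3 and an adjusted p below 0.05. DESeq2 1.42.0 was an alternative. Each ± beside a log2 fold change is its SE. CPM are the counts of the summed cells scaled to a common total. Shares after thinning leave out cells under 1500 UMIs. A group at 0 UMIs was set to 3 UMIs, and with 1 to 3 UMIs the ratio is given with its 95% counting interval. Promoter windows came from RefSeq. Python 3.11.15 was used with matplotlib 3.10.9, scanpy 1.11.5, pandas 2.3.3, scipy 1.17.1 and numpy 2.4.6.

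The members of the population, the 31 gene lists and the tests were chosen with earlier results of these data known. The lists tested for the stage and the KO kept the genes of the rule. Named were the rule's genes, Acvrl1 and Cdh5; for the stage and the KO the 12 called genes that rose most and the 12 that fell most, without overlap and with at least 50 UMIs; 15 genes each way by ratio between the populations with at least 100 UMIs; up to 6 interaction calls each way; and called or abundant genes of the lists. Some genes that the rule names are not reported here. Genes beyond this rule were chosen after their values were seen.

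On simulated counts with 100 genes changed per fold, edgeR recovered 48% at 2-fold and 84% at 4-fold between stages (9060 genes), 5 and 32% for the KO (7809 genes), and 21 and 67% and 2 and 23% for the interactions (10289 and 9036 genes). The alternatives were other cell filters, scores, thinning, normalizations, tools, blocks and left-out libraries. Those of leaving out cells with markers of another type or the deepest cell of each library and of testing other gate populations were chosen after seeing the data.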

Additional observations from a re-analysis of the deposited data

Results flagged for a closer look

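Some genes were singled out because their response to the stage or the KO differed between Slc6a13 Thbs4 and Sfrp5 Hcn4 cells by the interaction test. The values are log2 differences between the fold changes of the 2 populations, from edgeR, and for genes at 0 UMIs in a group their size depends on the prior count. Between stages, smaller values in the Slc6a13 Thbs4 cells were found for Sox2 (-9.56), Cilp (-9.37), Mag (-8.91) and Cdca3 (-7.73). Larger values were found for Ppp1r14a (6.18), Mfap4 (4.90), Mmp3 (3.87), Rexo2 (0.92) and Igfbp4 (0.78). Ppp1r14a gave 112 UMIs in anagen S2 and at most 2 in the other WT libraries. In anagen S2 1 cell held 96.1% of the UMIs of the pericyte list. Igfbp4, which binds IGF, read 190 and 239 CPM at telogen and 261 and 434 CPM at anagen in the Slc6a13 Thbs4 cells.

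For the KO, smaller values were found for Itih5 (-4.75), Sema3c (-3.83) and Hmgn1 (-2.58), and larger ones for Tnfaip6 (13.3), Lgals3 (5.79), Rian (5.16), Thbs2 (5.11), Errfi1 (3.97) and Id2 (3.88). Lgals3, Rian and Thbs2 gave 0 UMIs in KO S1 and 43, 20 and 36 UMIs in the 9 cells of KO S2, and without the deepest cell of each library their values were -5.10, -4.61 and -5.52. Of these 9 cells 5 were flagged by their Scrublet score, and the deepest holds 34.8% of the UMIs of the 9. Sema3c, a secreted guidance protein, gave 278 and 216 UMIs at telogen and 1 and 1 in the KO. Without cells holding markers of other types, all of these genes but Cilp and Tnfaip6 missed the threshold or were no longer tested.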

How the results depend on the processing

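Counts of called genes moved with the choice of cells. Between stages (133 calls) they were 44 with a score at least 2 above the other, 39 with thinning before scoring, 55 under 5% mitochondrial UMIs, 56 without likely doublets, 38 without cells of other types, 570 with no low-count filter, 51 with all libraries in the fit, 1 in all gate cells, and 0 both in the other gate cells and in Sfrp5 Hcn4 cells (1242 genes there had an unadjusted p under 0.05 by edgeR). For the KO (663) they were 0 without likely doublets (1466 genes had an unadjusted p under 0.05 by edgeR, and 4 cells were left in KO S2), 134 with a margin of 2, which left 9 and 2 cells, 401 with thinning, 38 with equal cells and UMIs, 1868 in all gate cells, 1753 in the other gate cells and 1238 in Sfrp5 Hcn4 cells. Leaving out each library gave 62 to 761 and 2 to 1223 calls. The cause was not tested.

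For the interaction with the stage (26) the counts were 1 with thinning, 7 under 5% mitochondrial UMIs, 10 without doublets, 16 without the deepest cell of each library, 1 without cells of other types, 3 with DESeq2 and 138 with no low-count filter, and leaving out libraries gave 68 to 106. For that with the KO (15) they were 8 with a margin of 2, 7 without doublets, 24 without the deepest cells, 23 under 5% mitochondrial UMIs and 1 without cells of other types, and leaving out libraries gave 1 to 218. The share difference between stages (2.56 percentage points) was -0.78 with a score margin of 2 and -2.43 among all kept cells, and -2.74 to 7.86 with libraries left out; for the KO it was -13.0 to -2.41.

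With the replicate number as a block the counts were 485 for the stage and 376 for the KO. The numbers share no more than a name, since deviations of same-numbered libraries correlated at -0.050, -0.030 and 0.014. In the other gate cells Krt14 (-1.91), Krt17 (-0.65), Plet1 (-0.92) and Top2a (0.89) reversed for the stage and Errfi1 (-0.60) and Id2 (-0.85) for the KO, and in Sfrp5 Hcn4 cells Top2a (0.31), and for the KO Errfi1 (-0.97), Id2 (-1.36) and Sema3c (0.14). Cdkn1a (-0.17, thinned) and Errfi1 (-0.43, naming score at least 2) reversed for the KO, as did Txnip (-0.44, margin of 2; 0.95 to 1.37 with libraries left out) and Errfi1 with libraries left out (-0.66 to 4.18, the lowest without KO S2). Of the interactions, Mfap4 (-1.54 to 5.08) reversed without anagen S2, Lgals3 (-0.047 to 6.06), Rian (-5.72 to 11.8) and Thbs2 (-6.61 to 13.3) without KO S2, Errfi1 (-0.0065) and Lgals3 (-4.86) with a naming score of at least 2, Lgals3 (-5.10), Rian (-4.61) and Thbs2 (-5.52) without the deepest cells, and Tnfaip6 (-2.22) when thinned. Of the other values of named and called genes over the alternatives, 1019 for the stage and 2209 for the KO kept their call, and 425 and 789 kept their direction but not the threshold. The KO sums held 86365 and 67407 UMIs, against at least 801584 in a WT library.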
